A study of Mus musculus with 4 samples.

Results

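The expression of 10 genes that mark mature neurons and their synapses was examined in sorted YFP-positive cells of the mouse subventricular zone, with and without Opa1. The genes were taken by name from the 55421 gene identifiers of the table: Snap25, Syt1, Syp and Syn1 of the presynaptic terminal, Slc17a7, Gria2 and Grin1 of glutamate transmission, Camk2a and Nrgn of postsynaptic calcium signalling, and the neuronal splicing factor Rbfox3. Bulk RNA sequencing was performed on 4 libraries, 2 from Opa1 KO cells and 2 from WT cells. The Opa1 KO cells came from mice with a Nestin-CreERT2 transgene, a Rosa26 stop-YFP reporter and floxed Opa1 alleles. The WT cells came, by the study's methods, from control transgenic mice that carried the same Cre and reporter, and mice of both genotypes received tamoxifen. All mice were young adults of both sexes on a C57/BL/6 background, heterozygous for Cre. The study's methods place the sort about a month after tamoxifen, but another passage of its text gives a shorter interval, so the time of the sort is uncertain. Opa1 encodes a GTPase that fuses inner mitochondrial membranes, and the comparison asks how its loss changes the transcripts of these cells.

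Nestin-CreERT2 acts in Nestin-expressing cells and the YFP label stays in their progeny, so the sort can hold stem cells, neuroblasts, young neurons and any other Nestin lineage. The labels call the cells neural stem cells and do not say whether the libraries of a group came from separate animals, so p-values cover no more than the variation among the sequenced libraries. How many animals entered each library is not given in the sources used here. Recovered reads numbered 19985853 and 22285901 in Opa1 KO cells, against 23237326 and 22825629 in WT cells. The value of a gene in a library is given below as its normalised read count, the number of reads assigned to the gene divided by a size factor of that library. Opa1 itself had 837 and 739 normalised reads in Opa1 KO cells, against 3039 and 2833 in WT cells, a log2 fold change of -1.90.

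In a mature synapse, synapsins hold vesicles in reserve. An action potential opens calcium channels, calcium binds synaptotagmin on vesicles at the membrane, and the SNARE proteins SNAP-25, syntaxin and VAMP fuse them with it. In excitatory cells the vesicles are filled with glutamate by a vesicular transporter, and the glutamate opens AMPA and NMDA receptors, whose calcium current acts through calmodulin and CaM kinase II. Most new neurons of the adult subventricular zone migrate to the olfactory bulb and become GABA-releasing interneurons, and the glutamate transporter encoded by Slc17a7 is typical of cortical and hippocampal excitatory neurons. Many of these genes are silent in stem cells, in part through the repressor REST, which binds a DNA element named RE1 near neuronal genes.

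The promoter sequences of the 3 members that were lower in both Opa1 KO libraries than in either WT library are shown with the elements searched for. The elements were the left arm of RE1 (CAGCACC), its right arm (GGACAG), the complete RE1 with the left arm, any 2 bases and the right arm in that order, the cyclic AMP response element TGACGTCA and its short form TGACG, on both strands. The short form lies within the full response element. Capitals mark every match, and each stretch reads 5′ to 3′ along the gene, upstream of its RefSeq start (build GRCm38.p6).
Syn1, chrX:20921049-20921168, minus strand: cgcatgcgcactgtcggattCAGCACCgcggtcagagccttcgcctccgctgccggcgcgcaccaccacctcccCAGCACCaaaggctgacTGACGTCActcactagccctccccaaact
Grin1, chr2:25319188-25319317, minus strand: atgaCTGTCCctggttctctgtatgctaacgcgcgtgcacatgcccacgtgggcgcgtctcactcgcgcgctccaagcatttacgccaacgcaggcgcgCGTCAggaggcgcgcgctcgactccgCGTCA
Gria2, chr3:80802916-80803035, minus strand: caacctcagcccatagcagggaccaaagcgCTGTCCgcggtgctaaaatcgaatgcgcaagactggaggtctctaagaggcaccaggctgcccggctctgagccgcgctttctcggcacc

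Syn1 held the left arm of RE1 at positions -230 to -224 and -176 to -170 from its start, and the full cyclic AMP response element at -159 to -152. Grin1 held the reverse of the right arm at -126 to -121 and the reverse of the short response element at -31 to -27 and -5 to -1. Gria2 held the reverse of the right arm at -170 to -165. Windows of 300 bases, 250 of them upstream, were found for 8 of the members, with 9 windows in all because Syt1 has a pair of starts. Snap25 and Camk2a had no window, so the counts of matches do not cover them. Of those 9 windows, 0 held the complete RE1, which occurred in 12 of the 32851 windows of all genes (0.0365%). The search took exact letters only, and near matches were not counted. In Syn1 the left arm at -230 to -224 is followed, after 2 bases, by ggtcag, where the right arm reads GGACAG. The left arm was in 1 member window, against 7.14% of all windows, and the right arm in 4, those of Grin1, Gria2, Slc17a7 and Syt1, against 22.2%. The full response element was in 1 member window, against 1.79%, and the short form in 2, against 20.8%. The GC content of the member windows ranged between 44% for the second Syt1 start and 68.3% for Syn1, beside a median of 52.7% over all windows. A match of letters is a description and not evidence of binding.

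The members differed in level by more than 3 orders of magnitude over the libraries. Per kilobase of annotated exon, the mean over the 4 libraries was 458 normalised reads for Gria2, 386 for Syn1, 175 for Snap25, 94.3 for Syp, 86.2 for Syt1, 21.7 for Rbfox3, 14.5 for Camk2a, 12.04 for Grin1, 4.14 for Nrgn and 0.275 for Slc17a7. Gria2 lay at the 84.9th and Syn1 at the 81.6th percentile of this level among the 18547 genes tested, while Camk2a lay at percentile 17.4 and Grin1 at percentile 15.1. The ranges over libraries overlapped between Gria2 and Syn1, between Rbfox3 and Camk2a, and between Camk2a and Grin1, so the order within these pairs is not beyond the spread. With the length of the longest consensus coding transcript in place of all exons, Snap25 (561 per kilobase) came above Syn1 (390), and Grin1 (27.6) above Camk2a (21.7). The order of those genes therefore depends on the gene model, as do the family shares given below, which use all annotated exons.

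**Figure D1:**
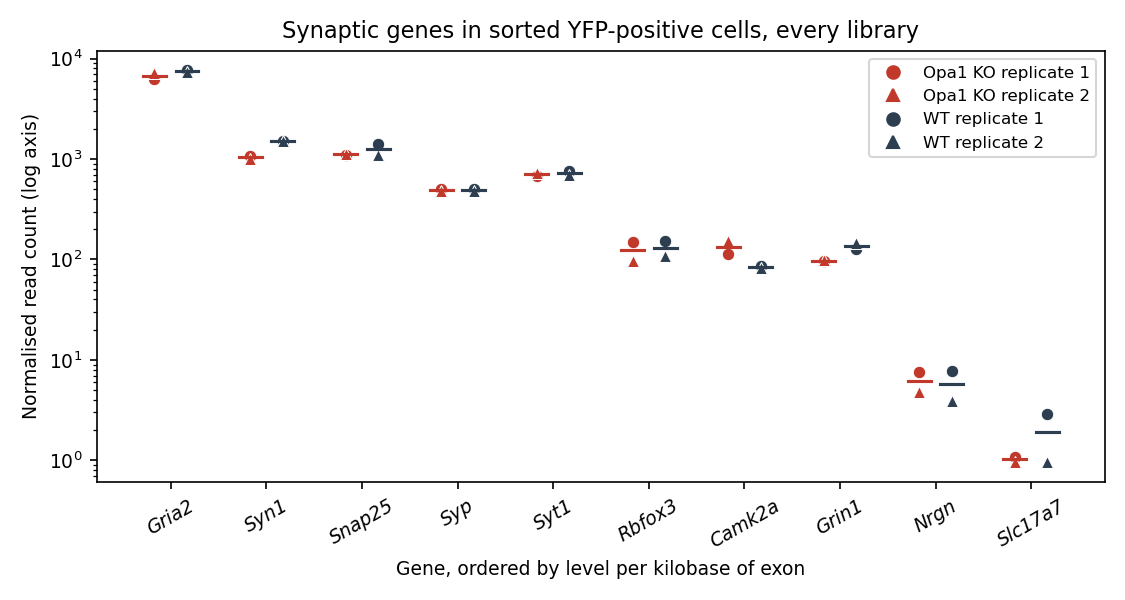
Normalised read counts (log axis) of the 10 genes in each library, Opa1 KO in red to the left of WT in dark blue, circles for replicate 1 and triangles for replicate 2, with a bar at the group mean. Gria2 lies at 6286 or above in every library, Nrgn and Slc17a7 below 10, and both Opa1 KO libraries lie below the WT libraries for Syn1, Grin1 and Gria2 and above them for Camk2a.

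Of the markers of mature excitatory neurons among the members, Slc17a7 and Nrgn were close to the limit of detection. Camk2a was not, with 82.6 to 151 normalised reads over the libraries. Slc17a7 (ENSMUSG00000070570, chr7:45163949-45176142, plus strand), the vesicular glutamate transporter VGLUT1, had 1 and 1 reads in the Opa1 KO libraries, against 3 and 1 reads in the WT libraries. These counts are at or under the floor of 3 reads per library, and no fold change is given. Nrgn (ENSMUSG00000053310, chr9:37544492-37552904, minus strand), a calmodulin-binding protein of dendritic spines, had 7 and 5 reads in Opa1 KO cells, against 8 and 4 in WT cells, and the groups overlapped. Both genes fell under the minimum of 10 normalised reads in 2 libraries and were not tested, so 8 of the 10 members entered the fit. For comparison, the neuroblast gene Dcx had 17098 and 14067 normalised reads in Opa1 KO cells, against 23028 and 20655 in WT cells. The name of the gene set therefore states what these genes are known for and not which cells were sorted.

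Rbfox3 (ENSMUSG00000025576, chr11:118489762-118911597, minus strand), the neuronal nuclear antigen NeuN, had 148 and 97.6 normalised reads in Opa1 KO cells, against 152 and 108 in WT cells. The groups overlapped, and within each genotype replicate 1 was the higher library. The log2 fold change was -0.09 ± 0.34 (SE), with an interval of -0.99 to 0.81 at 95% confidence, so a change of nearly 2-fold in either direction is within the error. Its paralogue Rbfox2, also a splicing factor, made up 87.0% of the Rbfox level per kilobase in Opa1 KO cells and 88.8% in WT cells, and Rbfox3 6.45% and 5.24%.

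Among the presynaptic members, Syn1 (ENSMUSG00000037217, chrX:20860511-20921004, minus strand), the synapsin that tethers vesicles to the cytoskeleton, had the most negative log2 fold change of the 8 genes. It had 1081 and 1003 normalised reads in Opa1 KO cells, against 1499 and 1506 in WT cells. Each Opa1 KO library was lower than either WT library, and the gap between the groups was wider than the spread within either. The mean in Opa1 KO cells was 0.693 of that in WT cells, with a log2 fold change of -0.53 ± 0.12 (SE, interval -0.85 to -0.21). The unadjusted p was 0.00943 by limma-trend, and the adjusted p over all genes was 0.998. DESeq2 on the recovered reads gave an unadjusted p of 0.000884 and an adjusted p of 0.131. The difference was therefore larger than the spread between libraries for this gene alone and was not called among all genes by either tool.

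The other synapsins showed no such separation. Syn2 had 485 and 532 normalised reads in Opa1 KO cells, against 454 and 514 in WT cells, and Syn3 had 358 and 404 in Opa1 KO cells, against 398 and 447 in WT cells. The groups overlapped for both genes. Syn1 made up 76.9% and 73.7% of the synapsin level per kilobase in the Opa1 KO libraries, against 82.4% and 80.6% in the WT libraries. The exons of Syn1 share only 9 annotated bases with Araf on the opposite strand, and Timp1, which lies within Syn1 on the opposite strand, shares none and had 20.5 ± 1.85 normalised reads in Opa1 KO cells and 26.7 ± 7.47 in WT cells (SD, n = 2 each).

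The other presynaptic members did not separate the genotypes. Snap25 (ENSMUSG00000027273, chr2:136713453-136782428, plus strand), the SNARE protein of the plasma membrane, had 1106 and 1116 normalised reads in Opa1 KO cells, against 1419.8 and 1105 in WT cells. The WT replicate 1 library stood above the other 3, which lay close together. The log2 fold change was -0.17 ± 0.17 (SE, interval -0.62 to 0.28). Without WT replicate 1 it was 0.01.

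Syt1 (ENSMUSG00000035864, chr10:108497650-109010982, minus strand), the calcium sensor of fast release, had 681 and 731 normalised reads in Opa1 KO cells, against 762 and 699 in WT cells. The groups overlapped and the log2 fold change was -0.05 ± 0.14 (SE, interval -0.42 to 0.32). Syp (ENSMUSG00000031144, chrX:7638471-7653256, plus strand), the vesicle membrane protein synaptophysin, had 508 and 479.6 normalised reads in Opa1 KO cells, against 501 and 477 in WT cells. Its libraries were the closest of any member, with a log2 fold change of 0.01 ± 0.15 (SE, interval -0.38 to 0.40). The exons of Syp share 875 bases (16.79% of their length) with the antisense gene Gm14703, which had between 6.53 and 17.4 normalised reads. Whether counting used strand is not given in the sources used here, so reads of this overlap cannot be assigned to one of the genes.

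**Figure D2:**
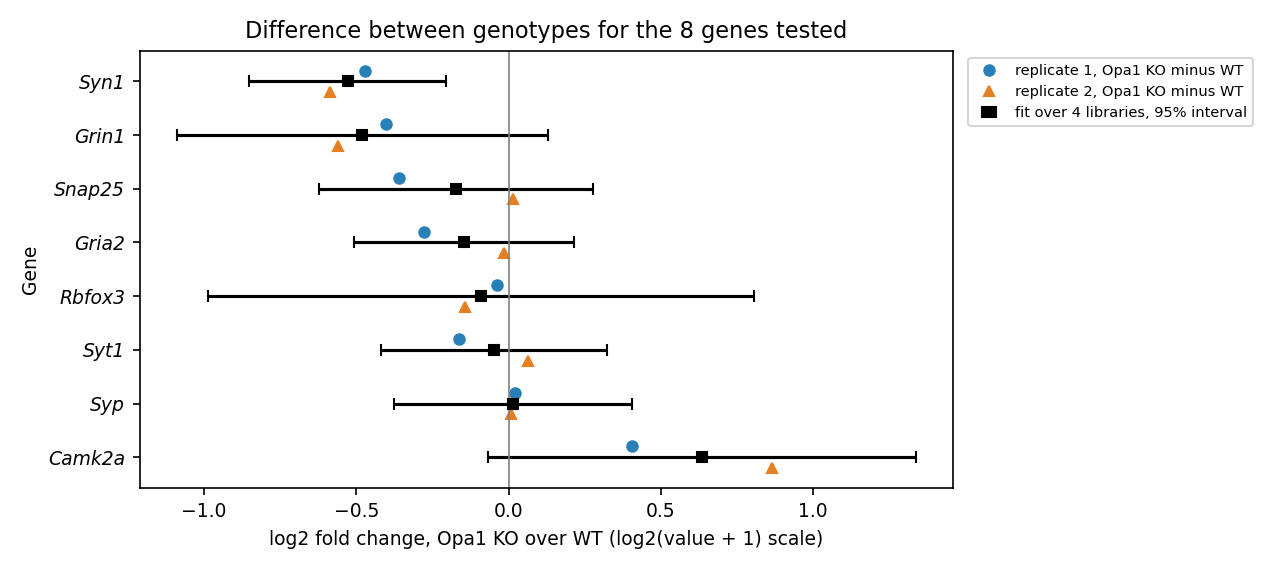
Log2 fold change of Opa1 KO over WT for the 8 genes tested, with squares and bars for the limma-trend estimate and its 95% interval, and circles and triangles for the difference between libraries of replicate number 1 and 2. The interval of Syn1 (-0.85 to -0.21) leaves out 0 and the intervals of the other 7 genes include it, before adjustment over all genes.

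Of the glutamate receptor members, Gria2 (ENSMUSG00000033981, chr3:80681450-80802835, minus strand) encodes the AMPA receptor subunit whose edited form keeps the channel impermeable to calcium. It had 6286 and 7254 normalised reads in Opa1 KO cells, against 7626 and 7329.6 in WT cells. The groups did not overlap, but the nearest libraries, Opa1 KO replicate 2 and WT replicate 2, differed by a log2 value of only -0.01. With scaling by library size or TMM in place of the deposited size factors, the groups overlapped. The log2 fold change was -0.15 ± 0.13 (SE, interval -0.51 to 0.21). Gria2 dominated its family, with 77.6% and 79.0% of the AMPA receptor level per kilobase in the Opa1 KO libraries, against 75.4% and 76.4% in the WT libraries. Gria4, the subunit next in level, took 12.9% and 10.4% in Opa1 KO cells, against 15.1% and 14.6% in WT cells.

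Grin1 (ENSMUSG00000026959, chr2:25291181-25319187, minus strand) encodes the NMDA receptor subunit that every functional NMDA receptor needs. It had 95.8 and 98.6 normalised reads in Opa1 KO cells, against 127 and 146 in WT cells. The 2 Opa1 KO libraries were both lower than either WT library, with a log2 fold change of -0.48 ± 0.23 (SE, interval -1.09 to 0.13) and an unadjusted limma-trend p of 0.0955. Of the NMDA receptor level per kilobase, Grin1 took 3.38% and 3.48% in the Opa1 KO libraries, against 5.63% and 6.46% in the WT libraries. Most of that level came from Grin2c, a subunit known from cerebellar granule cells and astrocytes, with 68.6% and 69.4% in Opa1 KO cells, against 53.7% and 59.6% in WT cells. Grin2c itself had 1009 and 1021 normalised reads in Opa1 KO cells, against 629 and 698 in WT cells, with a log2 fold change of 0.61 ± 0.13 (SE), an unadjusted limma-trend p of 0.00794 and an adjusted p of 0.998. The exons of Grin1 share 1307 bases (13.47%) with the antisense gene Grin1os, which had at most 2.18 normalised reads in any library.

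Camk2a (ENSMUSG00000024617, chr18:60925618-60988152, plus strand), the alpha subunit of CaM kinase II that is abundant in excitatory synapses, was the only member with both Opa1 KO libraries above both WT libraries. It had 113 and 151 normalised reads in Opa1 KO cells, against 85.2 and 82.6 in WT cells. The mean in Opa1 KO cells was 1.58 times that in WT cells, and the Opa1 KO libraries differed from each other by more than the gap to WT. The log2 fold change was 0.63 ± 0.26 (SE, interval -0.07 to 1.34), with an unadjusted p of 0.067 by limma-trend and 0.106 by DESeq2. Camk2a was a minor part of its family, at 7.99% and 8.94% of the CaM kinase II level per kilobase in the Opa1 KO libraries, against 6.95% and 6.21% in the WT libraries. Camk2g, the widely expressed gamma subunit, took 56.2% and 53.8% in Opa1 KO cells, against 48.4% and 51.2% in WT cells. Per kilobase of the longest consensus coding transcript, however, Camk2d (209) lay above Camk2g (173) in the mean over all libraries. Camk2b, the neuronal beta subunit, took 9.87% and 11.1% in Opa1 KO cells, against 15.4% and 15.5% in WT cells.

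**Figure D3:**
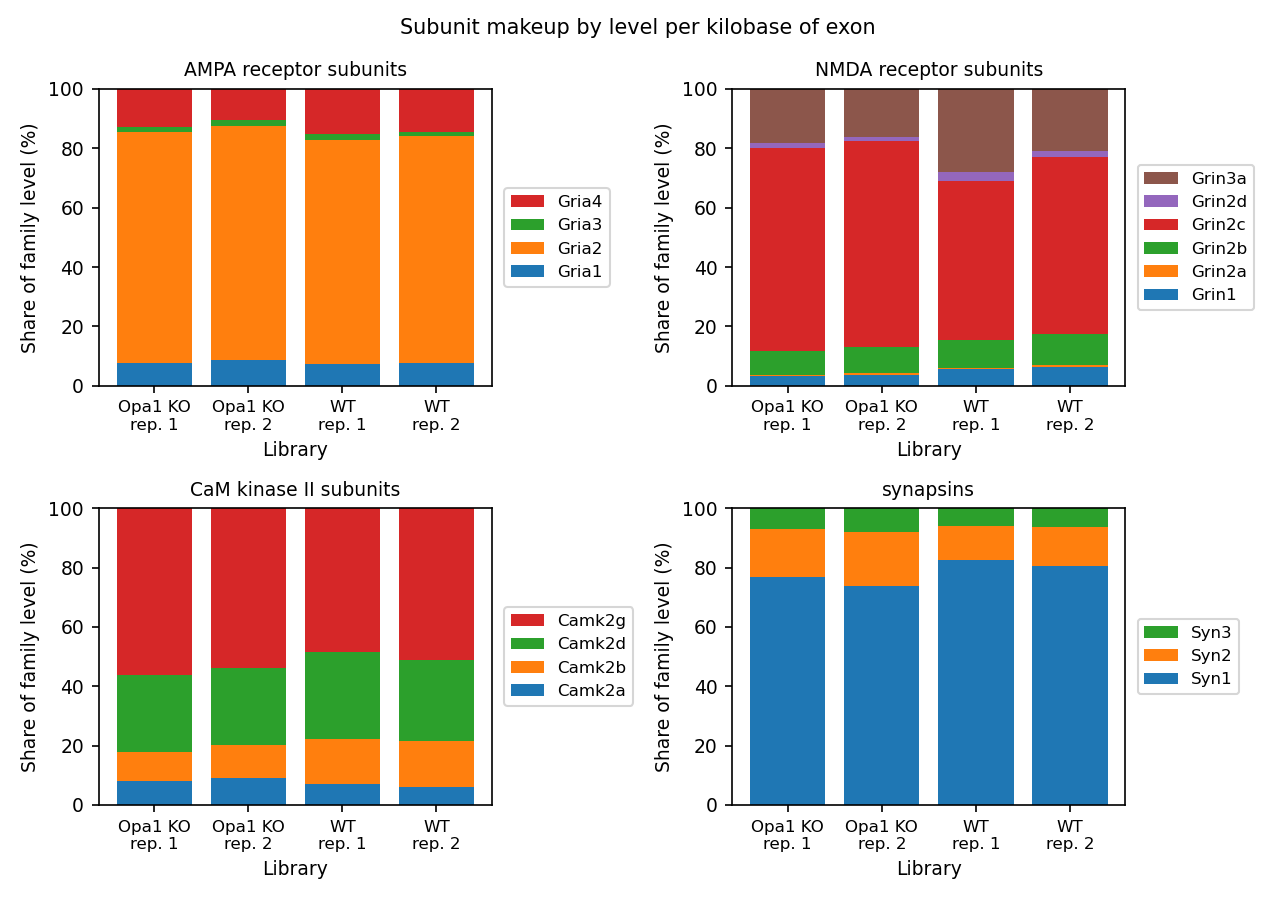
Share of each family's level per kilobase of exon (%, stacked bars) by subunit in each library, Opa1 KO bars to the left of WT bars. Gria2 made up 75.4% to 79.0% of the AMPA receptor level and Grin2c 53.7% to 69.4% of the NMDA receptor level in the 4 libraries, and the share of Syn1 was lower in the Opa1 KO libraries (76.9% and 73.7%) than in the WT libraries (82.4% and 80.6%). The shares depend on the gene model.

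Over the 8 members tested, limma-trend called 0 higher and 0 lower at an adjusted p under 0.05, as it did over all 18547 genes (0.0% called). DESeq2 also called 0 members, and 0.259% of all genes higher and 0.0863% lower. Limma-trend did not call even the deleted gene Opa1 (unadjusted p 6.95e-05, adjusted p 0.998), which DESeq2 called lower (adjusted p 1.71e-25). A count of 0 calls by limma-trend is therefore not evidence that a gene was unchanged. At an unadjusted limma-trend p under 0.05, 1 member was lower (Syn1) and 0 were higher, against 1.06% lower and 2.53% higher over all genes. The groups did not overlap in 3 members that were lower (Syn1, Grin1, Gria2) and 1 that was higher (Camk2a), against 15.7% lower and 15.2% higher over all genes. That is 4 of 8 members in either direction, beside 30.9% of all genes. The median log2 fold change of the 8 was -0.12, beside -0.01 over all genes. Between replicate 1 libraries the median difference was -0.22, and between replicate 2 libraries it was 0.00, so the median rests on the first of these. Without WT replicate 1 the median was 0.01 and without WT replicate 2 it was -0.26. The genes whose pattern over the 4 libraries lay nearest to the median pattern of the members were Negr1, Plpp5, Mtpn, Zranb2 and Sh3gl2, with root mean square distances of 0.0153 to 0.0189 on the log2 scale among 12517 candidates. That pattern consists of a high WT replicate 1 and 3 libraries close together.

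In the wider set of synaptic and neuronal genes, 120 genes in 9 lists, 115 were tested, 0 were called by limma-trend or DESeq2, 43 had a higher and 72 a lower mean log2 value in Opa1 KO cells, and the median log2 fold change was -0.10. At an unadjusted limma-trend p under 0.05, 4 were higher and 5 lower (3.48% and 4.35%, against 2.53% and 1.06% of all genes). The groups did not overlap in 13 genes that were higher and 35 that were lower (11.3% and 30.4%, against 15.2% and 15.7% of all genes). The separated genes of this set lay mostly on the lower side, but unevenly by list. Lower and higher ones numbered 10 and 2 in the pan-neuronal list, 4 and 0 in transmitter synthesis and loading, and 4 and 1 in vesicle fusion. They numbered 3 and 0 in the active zone and 4 and 2 in the ionotropic glutamate receptors. The postsynaptic density and GABA-A lists each had 4 and 3, and the vesicle proteins and metabotropic receptors each had 1 and 1. The vesicle fusion machinery, partners of Snap25, had 4 of 12 genes higher and 8 lower with a median of -0.11. In it Vamp1, a vesicle SNARE, had 489 and 450.0 normalised reads in Opa1 KO cells, against 256 and 371 in WT cells, and Napb, an adaptor that recycles SNARE complexes, had 1040.4 and 923 in Opa1 KO cells, against 1212 and 1180.4 in WT cells. The vesicle proteins, which include the paralogues of Syt1 and Syn1, had 7 of 14 genes higher and 7 lower with a median of -0.02. The active zone scaffold and calcium channel genes had 1 of 9 higher and 8 lower with a median of -0.10, and their log2 fold changes ranged between -0.35 and 0.09. The lowest was Rims1, a vesicle priming scaffold, with 269.9 and 242 normalised reads in Opa1 KO cells, against 323 and 329.6 in WT cells.

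The genes for transmitter synthesis and loading, to which Slc17a7 belongs by function, had 0 of 6 tested genes higher and 6 lower, and their median log2 fold change was -0.38. Th, the rate-limiting enzyme of dopamine synthesis, had 15.2 and 15.3 normalised reads in Opa1 KO cells, against 37.8 and 35 in WT cells (log2 fold change -1.20 ± 0.32, SE). Gad2, which makes GABA, had 5406 and 4612 in Opa1 KO cells, against 6488 and 6352 in WT cells, and Gad1 had 5730.0 and 4632 in Opa1 KO cells, against 6877 and 5769.9 in WT cells. The GABA enzymes were thus among the most abundant transmitter genes of the sort in every library. Slc17a6, the paralogue of Slc17a7 for VGLUT2, had 93.6 and 81.4 in Opa1 KO cells, against 156 and 121 in WT cells, and supplied 98.8% and 93.8% of the vesicular glutamate transporter level per kilobase in the Opa1 KO libraries, against 98.2% and 94.9% in the WT libraries.

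Beside Gria2 and Grin1, the other ionotropic glutamate receptor genes and their auxiliary subunits had 8 of 17 genes higher and 9 lower with a median of -0.04. Grik3, a kainate receptor subunit, had 942 and 835 normalised reads in Opa1 KO cells, against 1212 and 1403 in WT cells, and Gria4 had 422 and 386 in Opa1 KO cells, against 618 and 569.8 in WT cells. Both were lower without overlap at unadjusted limma-trend p of 0.0172 and 0.0187. The metabotropic receptors had 3 of 7 higher and 4 lower with a median of -0.17. Grm3, which astrocytes also express, had 4292 and 4924 in Opa1 KO cells, against 3003 and 3177 in WT cells, at an unadjusted limma-trend p of 0.00958.

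The postsynaptic density and calmodulin genes, around Camk2a and Nrgn, had 10 of 20 genes higher and 10 lower with a median of 0.02. The GABA-A receptor genes had 6 of 12 tested higher and 6 lower with a median of 0.05, and the higher ones were led by Gabrb1 (2079.8 and 2562 in Opa1 KO cells, against 1539 and 1635 in WT cells) and Gabrg1 (1451 and 1739.5 in Opa1 KO cells, against 1120.5 and 1129.9 in WT cells). The pan-neuronal and RNA-binding genes, with which Rbfox3 is usually grouped, had 4 of 18 tested higher and 14 lower with a median of -0.25. Rbfox2 had 2448 and 2137 in Opa1 KO cells, against 3068 and 3092 in WT cells, and Stmn2, a microtubule regulator of growing axons, had 6742 and 5147 in Opa1 KO cells, against 8953 and 7855 in WT cells. Rest and its corepressors had 1 of 4 higher and 3 lower. Rest had 344 and 648 in Opa1 KO cells, against 304 and 502 in WT cells, and differed more between replicate numbers than between genotypes.

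**Figure D4:**
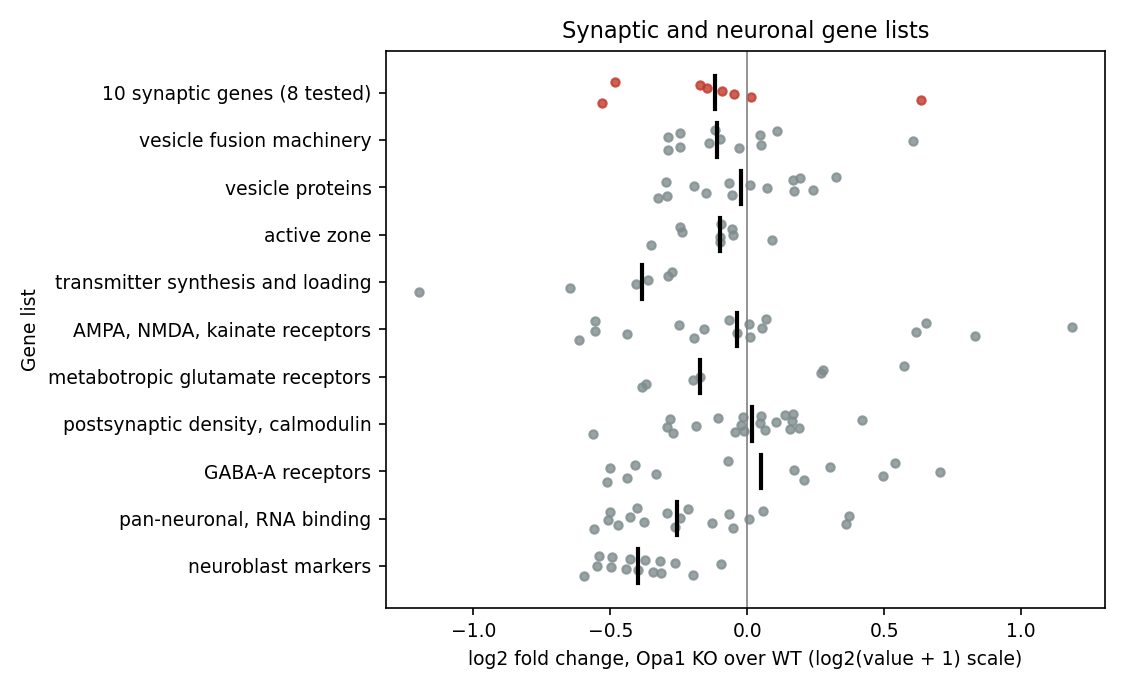
Log2 fold change of Opa1 KO over WT of each tested gene (points) in the 10 synaptic genes (red), 9 lists of synaptic and neuronal genes and the neuroblast markers (grey), with a black bar at each median. The members spread on both sides of 0 around a median of -0.12, and the neuroblast markers all lie below 0 with a median of -0.40.

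Marker genes of the cell types in the sort also differed between the libraries, and in bulk samples fewer cells of a type and less RNA per cell cannot be told apart. The neuroblast markers were lower in Opa1 KO cells in 15 of 15 genes (median -0.40 on the log2 scale), with sums of 109144 to 128685 normalised reads in Opa1 KO cells, against 145889 to 170373 in WT cells. DESeq2 called 1 of them, Foxp2, lower. The myelin markers were higher in 7 of 7 genes (sums of 58400 to 59502 in Opa1 KO cells, against 23252 to 44250 in WT cells) and the pericyte markers in 7 of 7 (6147 to 6404 in Opa1 KO cells, against 2399 to 3039 in WT cells), of which DESeq2 called 4 higher (Pdgfrb, Vtn, Higd1b and Abcc9). The stem cell and astrocyte markers were higher in 6 of 8 genes (144488 to 163163 in Opa1 KO cells, against 106199 to 117119 in WT cells), of which DESeq2 called 3 (Slc1a2, Slc1a3 and Aldoc). The endothelial markers were higher on average in 6 of 6 genes, with sums of 1499 and 4031 in Opa1 KO cells, against 1212 and 1968 in WT cells, and the microglia markers in 6 of 6, with sums of 1449.6 and 373 in Opa1 KO cells, against 1416 and 173 in WT cells. The ependymal markers summed to 7169 and 26880.4 in Opa1 KO cells, against 4687 and 29429 in WT cells. The groups overlapped for every endothelial, microglia and ependymal marker, and microglia and ependymal markers differed far more between replicate numbers than between genotypes. The oligodendrocyte precursor markers were higher in 4 of 5 genes and the immediate early genes in 7 of 8, with sums that overlapped between the genotypes. No marker of these lists was at 0 in any library. The part of these differences in the values of the synaptic genes was not tested.

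Markers of the mature neuron types that could carry the synaptic genes differed in level and direction. Of the striatal projection neuron markers, 10 of 12 had a higher and 2 a lower mean in Opa1 KO cells (median 0.40). Their sums were 4741 to 4950.4 normalised reads in Opa1 KO cells, against 5107 to 5631 in WT cells. The groups did not overlap in 6 that were higher and 2 that were lower (50% and 16.7%, against 15.2% and 15.7% of all genes). The most abundant striatal marker, the transcription factor gene Bcl11b, was lower without overlap (1604 and 1237 in Opa1 KO cells, against 2464 and 2157 in WT cells). The sum without it was not computed. Adora2a, the adenosine receptor of indirect pathway neurons, had 54.4 and 59.4 in Opa1 KO cells, against 16.5 and 23.3 in WT cells, at an unadjusted limma-trend p of 0.00864 and an adjusted p of 0.998. Drd1, the dopamine receptor that defines direct pathway neurons, had 10.9 and 14.4 in Opa1 KO cells, against 7.75 and 10.7 in WT cells. Of the cortical excitatory markers 4 of 8 were higher and 4 lower, with sums of 3848 to 4375 in Opa1 KO cells, against 3280.1 to 3534 in WT cells. Without Rorb, left out after its values were seen, the sums were 774 to 867 in Opa1 KO cells and 775 to 867 in WT cells, so the higher sum came from that gene.

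Set against the neuroblast genes within each library, the members were placed as follows. The mean log2 value of the 15 neuroblast genes was 12.4 and 12.2 in Opa1 KO cells, against 12.8 and 12.6 in WT cells. Subtracting it adds 0.39 to the log2 difference of every gene, since the neuroblast mean differed by -0.39, and leaves the order of the members among themselves as it was. On this scale the Opa1 KO libraries were both above the WT libraries in 4 of the 8 members (Camk2a, Syp, Syt1 and Snap25), against 58.5% of all genes tested, so the share is near the background and says nothing particular about the members. Syn1 was lower without overlap at a difference of -0.14, as were 1.54% of all genes. Its nearest libraries, Opa1 KO replicate 2 (-2.2575) and WT replicate 1 (-2.2557), were almost level, so that separation is very narrow.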

How the data were processed

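RNA sequencing was analysed in 4 libraries of YFP-positive cells, 2 Opa1 KO and 2 WT, grouped by the titles. Per the submitters' processing notes, reads were processed with HISAT2, SAMtools, featureCounts and DESeq2 on the mm10 build; versions, annotation and strand setting were not given in the sources used here. Deposited values are a normalised signal, featureCounts reads divided by a size factor per library by the authors. Dividing each column by its smallest step gave whole reads for 100% of values within 1e-06. The table also holds the authors' own fold changes and p-values, and 12 columns that repeat per-sample values. Neither these nor the other 5 deposited files were used.

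Limma-trend (limma 3.58.1, R 4.3.3) with robust moderation was run on log2(value + 1), genotype as the only term, over the 18547 genes that reached 10 in 2 or more libraries. P-values are two-sided, adjusted by the Benjamini-Hochberg method with a threshold of 0.05, and intervals are at 95% confidence. Fold changes on this scale understate those of low genes. Alternatives on recovered reads were edgeR 4.0.16, DESeq2 1.42.0 and limma-voom, with other scalings, pseudocounts, filters, a replicate block and each library left out. The fit was also run on simulated counts drawn without any shared replicate effect, as a check of the code only. Gene coordinates and exon lengths come from GENCODE on GRCm38, promoters from RefSeq.

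The members and lists were chosen with earlier results of these data known. The text names all members, from the lists the genes that limma-trend or DESeq2 called and some of the 4 with the smallest p in each synaptic list, paralogues of members, and the 5 genes nearest in pattern with a mean of at least 100. Drd1, Dcx, Syn3, Camk2b and Rest were added as defining genes or paralogues. Adora2a and Bcl11b had the smallest limma-trend p of the striatal list, and Rorb was named after its values were seen. Timp1, Araf, Gm14703 and Grin1os were named because they overlap members in the genome. Some genes called with the replicate block were also named. Depth limits Slc17a7 and Nrgn; counts cover counting error only.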

Additional observations from a re-analysis of the deposited data

How the results depend on the processing

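The count of genes called was 0 with limma-trend, 182 with the replicate block (123 higher, 59 lower), 64 with DESeq2 and 2 without the filter on low values, and the members called were 0 in every one of these fits. With 0 called, limma-trend gave 666 genes at an unadjusted p under 0.05, and edgeR with TMM scaling, which called 0, gave 704. Leaving out 1 library gave 0 to 0 calls. The replicate numbers are those of the titles, and the deposited columns carry 2 and 4 in their place in both genotypes. These numbers are shared between genotypes but are not shown to pair the libraries. The standard errors, intervals and p-values of the Results come from fits without the block. Replicate 1 libraries of both genotypes deviated together from their group means (r = 0.718 over 18547 genes, which are not independent), and with the block the adjusted p of Syn1 was 0.0565. Of the 115 synaptic and neuronal list genes, the block called 2 higher (Grm3, Gabrb1) and 3 lower (Elavl4, Stmn2, Stmn3). It called 4 of the neuroblast markers lower, and 4 astrocyte and 5 pericyte markers higher. It also called 1 myelin marker (Cnp) and 1 endothelial marker higher and 1 striatal marker (Bcl11b) lower. Over all 18547 genes it called 123 higher and 59 lower. Of 120 values of members under 15 alternatives, 112 kept their direction and side of the threshold and 8 changed sign. The replicate block and the changed filters left each log2 fold change as it was, so those values could not change sign. Most alternatives called 0 of all genes, so keeping the side of the threshold says little about the members. With a library left out, the log2 fold change of Snap25 was between -0.35 and 0.0083, of Syt1 between -0.11 and 0.014, of Rbfox3 between -0.39 and 0.21 and of Syp between -0.028 and 0.056, and Syt1 was 0.0047 with library size scaling. The members' median ranged between -0.26 without WT replicate 2 and 0.011 without WT replicate 1. Members without overlap numbered 3 to 6 lower and 1 to 3 higher with a library left out, 2 higher with library size scaling, and 2 lower with library size or TMM scaling, under which Gria2 overlapped. The cause was not tested. Leaving out a library leaves 1 library in its group, and groups separate more readily then than with 2 libraries in each. The share of all genes that separated is not given for those settings. The counts of members without overlap there therefore have no background to be set against and say nothing particular about the members. Scaling moved the median of all genes by at most 0.05 (library size).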
